A study of Homo sapiens with 2 samples.

Results

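The 10 genes described here encode heat shock chaperones of HSC-3 cells, an established squamous carcinoma line of the head and neck (HNSCC). They are the cytosolic HSP70 genes HSPA1A, HSPA1B and HSPA8, the HSP110 gene HSPH1, the J-domain gene DNAJB1, the small heat shock gene HSPB1, the HSP90 genes HSP90AA1 and HSP90AB1, and the mitochondrial chaperonin genes HSPD1 and HSPE1. They were chosen by symbol from the 60616 genes listed, and each of the 10 has 1 entry that is above 0 in both libraries. One library was made from HSC-3 cells treated with FIN56 at 1 µM for 48 h and one from HSC-3 cells treated with DMSO at 0.1%, for which the labels give no time. FIN56 is a small molecule inducer of ferroptosis, in which peroxidised membrane lipids kill the cell, and the study calls its dose sublethal. Both cultures grew in the same serum-containing DMEM medium and carry no engineered change. With 1 library per condition no difference could be checked against replicates, and p-values are not given. In bulk libraries a large change in few cells and a small change in all cells cannot be told apart.

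Chaperones bind proteins that are unfolded or only partly folded and keep them from aggregating. HSP70 proteins do so in a cycle of ATP hydrolysis that J-domain proteins start and HSP110 proteins reset, HSP90 proteins act later on clients such as kinases and steroid receptors, and the chaperonin of the mitochondrial matrix encloses its clients in a chamber. In stressed cells the transcription factor HSF1 forms trimers and binds heat shock elements, inverted repeats of GAA, near the start of these genes, which raises the inducible members steeply. HSPB1 has also been described as a protein that restrains ferroptosis.

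Expected counts, the estimated reads per gene, came to 70184517 with DMSO and 73062209 with FIN56, and mitochondrial transcripts held 4.77% and 5.75% of them. The label of the cells was checked against marker genes. All 9 squamous epithelial markers were present, with TPM values (transcript abundance scaled for length and to a fixed library total) from 65.8 to 3109. The leukocyte markers PTPRC and CD3E were at 0 in both libraries, while CD68, which is not restricted to leukocytes, stood at a TPM of 85.65 in DMSO and 37.57 in FIN56. The summed TPM of 6 fibroblast markers was 7.64 in DMSO and 4.47 in FIN56, and that of 3 endothelial markers 0.12 in both.

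The results of a sequence search for heat shock elements near the starts of these genes are shown first, for the 10 chaperones alone. Windows from 250 bases before to 50 bases after each gene start (RefSeq, build GRCh38.p14) were searched for a pair of facing units, GAANNTTC or TTCNNGAA, and for 3 alternating units, GAANNTTCNNGAA or TTCNNGAANNTTC. The pairs read the same on both strands, and each match of 3 units holds 2 overlapping pairs. All 10 genes matched the table by symbol. A pair was found for 8 of the 10 and 3 units for 4 of the 10, beside 16.2% and 0.608% of all 27305 genes in the table, some of which have several windows. The RefSeq start of HSPH1 lies 484 bases before the start of its canonical transcript in GENCODE release 44, so the window at the canonical start was also read from the GRCh38 genome, and it held 3 units. These matches are a description of sequence and no measurement of binding. Not printed below is a second HSPH1 pair, 139 to 132 bases before the canonical start. Also left out are a pair in an intron of DNAJB1, 461 to 468 bases after its canonical start, and a second match of HSP90AB1. In the lines below the capitals mark the matching units, the sequence runs 5′ to 3′ on the strand of the gene, and positions are on GRCh38.

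HSPA1A, chr6:31815422-31815459, plus strand: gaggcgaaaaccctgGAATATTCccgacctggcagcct
HSPA1B, chr6:31827618-31827655, plus strand: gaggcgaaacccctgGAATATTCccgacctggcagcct
HSPA8, chr11:123062164-123062206, minus strand: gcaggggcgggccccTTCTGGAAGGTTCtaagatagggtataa
HSPA8, chr11:123062339-123062381, minus strand: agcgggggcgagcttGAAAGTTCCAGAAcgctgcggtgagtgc
HSPH1, chr13:31161936-31161978, minus strand: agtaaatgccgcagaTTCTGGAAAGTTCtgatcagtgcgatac
DNAJB1, chr19:14518422-14518489, minus strand: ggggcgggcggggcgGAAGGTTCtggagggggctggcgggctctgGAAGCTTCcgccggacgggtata
HSPB1, chr7:76302476-76302513, plus strand: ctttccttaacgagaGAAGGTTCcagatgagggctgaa
HSP90AA1, chr14:102087090-102087147, minus strand: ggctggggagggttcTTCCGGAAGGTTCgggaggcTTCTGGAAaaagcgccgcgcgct
HSP90AB1, chr6:44247763-44247805, plus strand: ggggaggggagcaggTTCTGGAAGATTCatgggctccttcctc
HSPD1, chr2:197500053-197500090, minus strand: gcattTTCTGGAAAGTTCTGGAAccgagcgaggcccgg

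HSPA1A and HSPA1B carry the same pair at nearly the same distance, 106 to 99 and 105 to 98 bases before the start. HSPA8 has 2 runs of 3 units, the nearer from 55 to 43 bases before the start. Those of HSP90AB1 lie in an intron, 677 to 689 and 730 to 742 bases after the canonical start, and the window at that start itself held none. HSPD1 and HSPE1 point away from each other on chromosome 2 with 539 bases between their canonical starts. The units counted for HSPD1 lie between the genes, 245 to 228 bases from the start of HSPD1 and 311 to 294 bases from that of HSPE1, which places them outside the window of HSPE1. No pair was found in the window of HSPE1 itself.

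**Figure D1:**
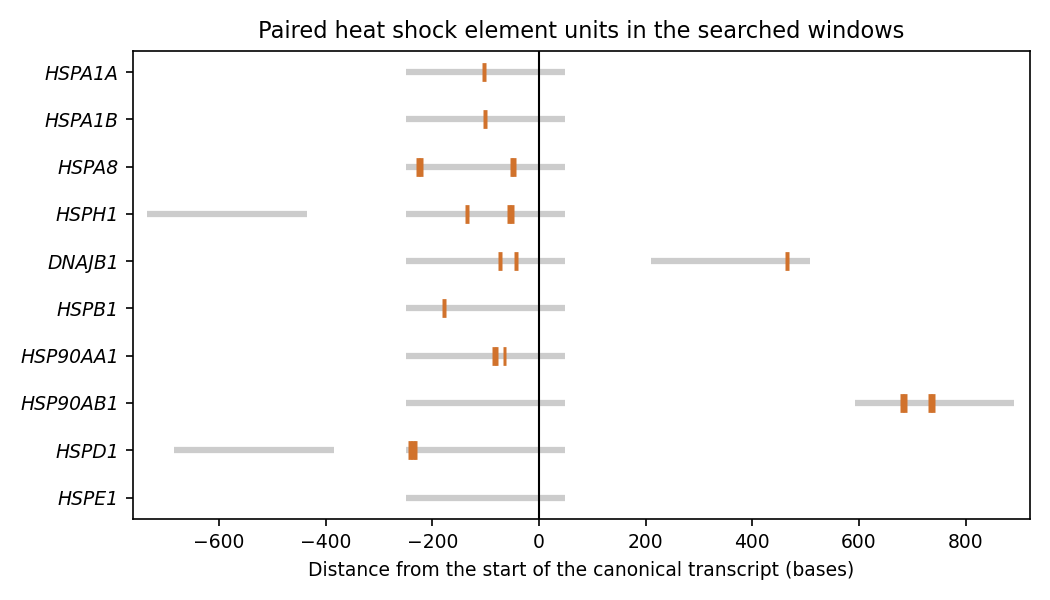
Positions of paired heat shock element units (orange) in the windows searched (grey), by distance in bases from the start of the canonical transcript of each of the 10 chaperone genes; windows of DNAJB1, HSP90AA1 and HSP90AB1 that lie farther upstream are off the axis. Units lie within 250 bases before the start in 8 genes, of which DNAJB1 has a further pair after it. HSP90AB1 has them only after the start, and HSPE1 has none.

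The chaperones were abundant with and without FIN56. Together they held 0.569% of all transcripts by TPM with DMSO and 0.545% with FIN56. HSPA8, the constitutive HSP70 of the cytosol, and HSP90AA1, the stress-inducible HSP90, made up 56.3% of that sum in DMSO and 54.7% in FIN56. The order of levels by TPM in DMSO was HSPA8, HSP90AA1, HSP90AB1, HSPE1, HSPD1, HSPA1A, HSPA1B, HSPH1, HSPB1 and DNAJB1. In FIN56 only the neighbours HSPD1 and HSPE1 changed places. HSPA8 ranked 85 among all genes by TPM in DMSO and 89 in FIN56, and DNAJB1, the least abundant of the 10, ranked 1360 and 1377.

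**Figure D2:**
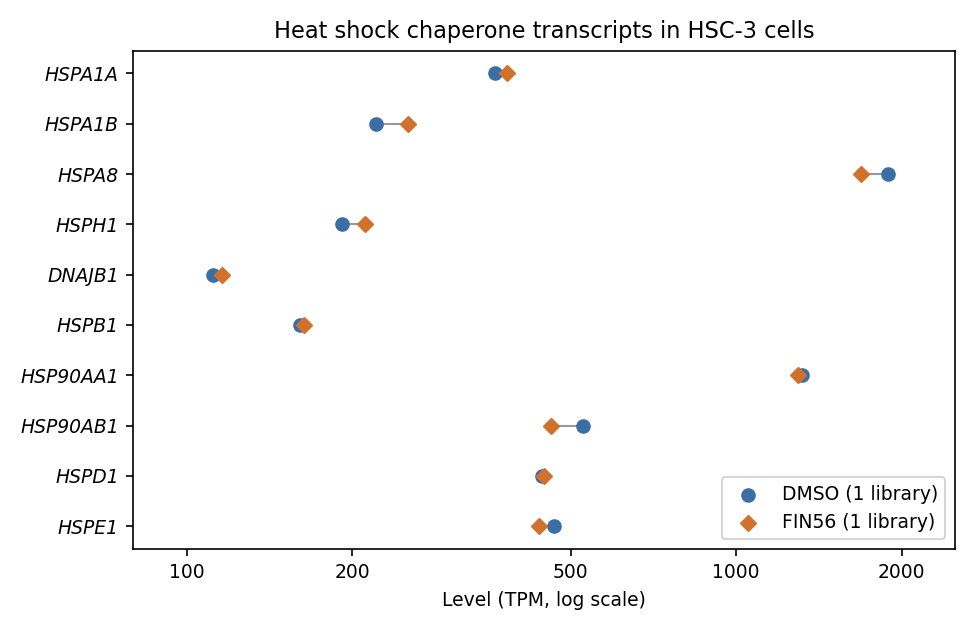
Level in TPM (log axis) of each chaperone gene with DMSO (circles) and with FIN56 (diamonds), 1 library each. The levels run from 111 for DNAJB1 to 1888 for HSPA8 in DMSO, and for every gene the 2 libraries lie close together relative to that span.

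None of the 10 chaperones reached an FPKM ratio of 1.5, FIN56 over DMSO, the threshold the study used for higher genes, and none lay at 1/1.5 or less. FPKM is the number of fragments per kilobase of effective gene length, scaled to the depth of the library. Of the 24454 genes that were above 0 with DMSO and with FIN56, 14.7% were at 1.5 or more and 17.3% at 1/1.5 or less. Many of those rest on few reads, so the fairer background is the 6919 genes that reached an FPKM of 10 both with DMSO and with FIN56, which include all 10 chaperones. There 1.97% were at 1.5 or more and 3.76% at 1/1.5 or less. With shares this small a count of 0 in 10 genes sets the chaperones apart from other abundant genes in neither direction. The ratios ran from 0.853 for HSP90AB1 to 1.12 for HSPA1B, a range that also held 50.3% of the abundant genes. The median log2 FPKM ratio was -0.016 over the 10 chaperones, 0 over all genes tested and 0.044 over the abundant genes.

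**Figure D3:**
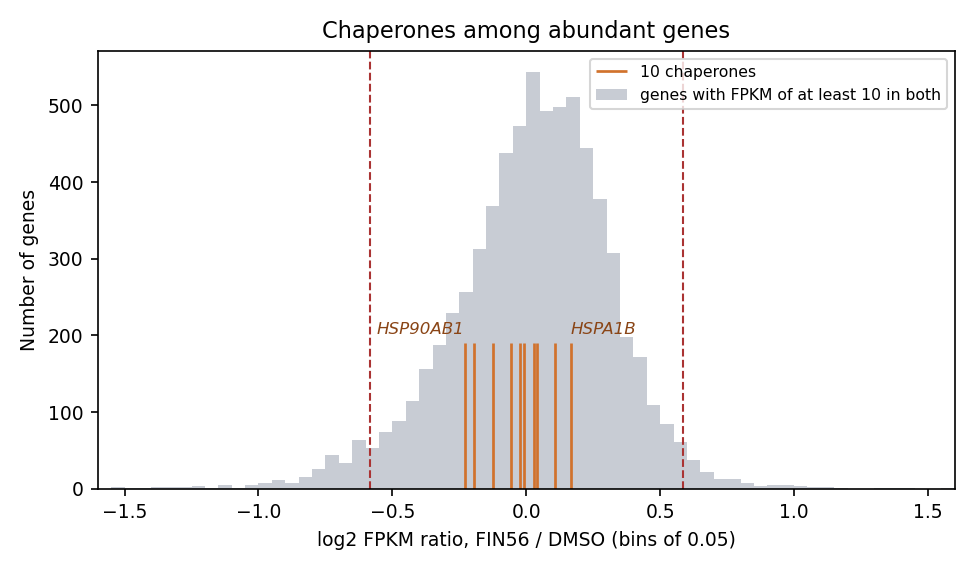
Histogram of the log2 FPKM ratio (FIN56 over DMSO, bins of 0.05) over the 6919 genes that reached an FPKM of 10 in both, with the 10 chaperones as orange lines and ratios of 1.5 and 1/1.5 as dashed lines. The chaperones sit in the body of the distribution, between HSP90AB1 at -0.23 and HSPA1B at 0.17.

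HSPA1A, HSPA1B, HSPH1 and DNAJB1 were higher in the FIN56 library with each of the 5 scalings compared (FPKM, TPM, and expected counts scaled by library totals, TMM or median of ratios). HSPA8, HSP90AA1, HSP90AB1 and HSPE1 were lower with each of the 5. HSPB1 and HSPD1 changed side with the scaling. When the FPKM ratios were divided by the median ratio of the abundant genes, 1.03, HSPA1B and HSPH1 stayed above 1 at 1.09 and 1.04, and HSPA1A and DNAJB1 came to 0.997 and 0.989. Intervals given below are exact 95% Clopper-Pearson intervals of the count ratio scaled by library totals. They cover counting error only, and reads that carry no molecular identifier cannot be taken as separate molecules.

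**Figure D4:**
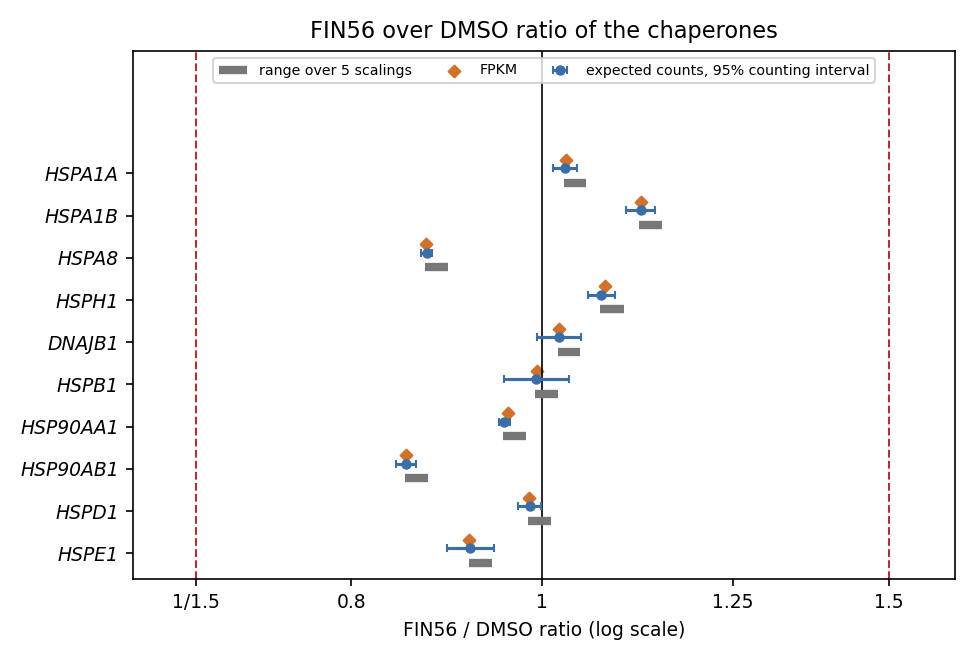
FIN56 over DMSO ratio (log axis) of each chaperone gene by FPKM (diamonds), by expected counts with its 95% counting interval (circles and bars) and as the range over 5 scalings (grey bars); dashed lines mark 1.5 and 1/1.5. HSPA1B is highest at 1.12 and HSP90AB1 lowest at 0.853 by FPKM, and all ranges stay inside the dashed lines.

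HSPA1A (ENSG00000204389) and HSPA1B (ENSG00000204388) are the main stress-inducible HSP70 genes, single-exon neighbours on the plus strand of chromosome 6 at 31815543 to 31817946 and 31827738 to 31830254. HSPA1A had FPKM values of 243.51 (DMSO) and 250.44 (FIN56), from 39085 and 41780 expected counts. Its FPKM ratio was 1.03 and its count ratio 1.03, with an interval of 1.01 to 1.04. HSPA1B had FPKM values of 147.51 (DMSO) and 165.49 (FIN56), from 25038 and 29241 expected counts. Its FPKM ratio of 1.12 was the highest of the 10, with an interval of 1.10 to 1.14, and 68.1% of the abundant genes had a lower one. The copies are hard to separate by sequence. Their coding sequences differ at 4 of 1923 bases (99.8% identical), and 73.8% of the 75-base stretches of the HSPA1A transcript also occur in HSPA1B. Their expected counts are therefore divided by RSEM, the authors' quantifier, and the single values are uncertain. The HSPA1A share of the pair was 61.0% of counts in DMSO and 58.8% in FIN56. Summed over both, 64123 and 71021 expected counts gave a ratio of 1.06. Adding HSPA1L, HSPA6 and HSPA7, which contribute 0.504% and 0.352% of the family, left it at 1.06 with an interval of 1.05 to 1.07. HSPA1L, the testis-enriched HSP70 beside HSPA1A on the opposite strand, had 319 and 249 expected counts. HSPA6, an HSP70 gene that is nearly silent without stress, was singled out after its values were seen. It had 6 expected counts in DMSO and 2 in FIN56, a count ratio of 0.32 with an interval of 0.0316 to 1.79.

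HSPA8 (ENSG00000109971), whose HSC70 protein is made in all cells and also serves clathrin uncoating and chaperone-mediated autophagy, was the most abundant of the 10. It had FPKM values of 1262.27 (DMSO) and 1102.43 (FIN56), from 180716 and 164328 expected counts. It was lower with FIN56, with an FPKM ratio of 0.873 and a counting interval of 0.868 to 0.879. The family has 17 pseudogene entries, of which 9 had counts, and together they held 0.264% of the family counts in DMSO and 0.276% in FIN56. The largest, HSPA8P5, had 371 and 349. With them added the ratio was 0.874, and counts of so small a share could move it little.

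The balance between the inducible and the constitutive HSP70 genes can be read within each library, where scaling drops out. By TPM, HSPA1A and HSPA1B together stood at 0.310 of HSPA8 in DMSO and at 0.377 in FIN56. By expected counts the quotient was 1.22 times higher with FIN56, with bounds of 1.20 to 1.24 from combining both counting intervals. The quotient of HSPH1 to HSPA8 was 1.23 times higher (bounds 1.199 to 1.255) and that of DNAJB1 to HSPA8 1.17 times higher (1.13 to 1.21). These quotients share HSPA8 as their denominator and are not separate observations of it.

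HSPH1 (ENSG00000120694), the HSP110 that exchanges nucleotides on HSP70 and helps to dissolve aggregates, lies on the minus strand of chromosome 13 and has 18 exons in its canonical transcript. It had FPKM values of 128.34 (DMSO) and 138.15 (FIN56), from 29257 and 32633 expected counts. It was higher in the FIN56 library, at an FPKM ratio of 1.08 and a count ratio of 1.07 with an interval of 1.05 to 1.09. None of its 75-base stretches occurs in another gene, and it is the only member with whole expected counts in both libraries, so its value rests on reads of its own.

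DNAJB1 (ENSG00000132002), the HSP40 that delivers clients to HSP70 and stimulates its ATPase, had FPKM values of 74.51 (DMSO) and 75.97 (FIN56), from 11224 and 11915 expected counts. The FPKM ratio was 1.02, and the counting interval of 0.994 to 1.05 includes 1. Its canonical transcript shares no 75-base stretch with another gene, and its single pseudogene DNAJB1P1 had 1 and 0 expected counts. The unrounded expected counts of DNAJB1, 11223.6 and 11914.9, were not whole, unlike those of HSPH1. Which reads were divided was not tested. A difference of DNAJB1 between the libraries was not detectable at this depth.

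HSPB1 (ENSG00000106211) encodes HSP27, which forms oligomers that hold unfolded proteins and bind actin. It had FPKM values of 107.6 (DMSO) and 106.94 (FIN56), from 5209 and 5385 expected counts. The FPKM ratio was 0.994, and the interval of 0.956 to 1.03 is the widest of the 10 in relative terms. HSPB1 was at 0.992 to 1.02 over the 5 scalings, and its pseudogene HSPB1P2 had 2 expected counts in each library. A difference of HSPB1 was not detectable at this depth either.

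HSP90AA1 (ENSG00000080824), the inducible HSP90 of the cytosol, had FPKM values of 881.91 (DMSO) and 847.06 (FIN56), from 180933 and 180205 expected counts. The ratio by FPKM was 0.960 and the counting interval 0.951 to 0.963. HSP90AB1 (ENSG00000096384), the constitutive HSP90, had FPKM values of 352.61 (DMSO) and 300.69 (FIN56), from 60801 and 53975 expected counts. Its FPKM ratio of 0.853, with an interval of 0.843 to 0.863, was the lowest of the 10, and 17.8% of the abundant genes had a lower one. HSP90AB1 was thus lower by a wider margin than HSP90AA1. The quotient of HSP90AA1 to HSP90AB1 by TPM was 2.50 in DMSO and 2.82 in FIN56, and by expected counts it was 1.12 times higher with FIN56 (bounds 1.10 to 1.14). Pseudogenes took little from either gene. HSP90AA2P had 534 and 616 expected counts and HSP90AB3P 580 and 563, and the family ratios with all pseudogenes added were 0.957 and 0.854.

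HSPD1 (ENSG00000144381, HSP60) and HSPE1 (ENSG00000115541, HSP10) encode the chamber and the lid of the mitochondrial chaperonin and were the members with the most similar levels. HSPD1 had FPKM values of 296.78 (DMSO) and 292.13 (FIN56), from 44930 and 46082 expected counts. Its FPKM ratio was 0.984, and the counting interval of 0.973 to 0.998, scaled by library totals, lay below 1. Over the 5 scalings the ratio of HSPD1 lay between 0.984 and 1.01, so no direction can be given. Its largest pseudogene, HSPD1P1, had 40 and 37 expected counts. HSPE1 had FPKM values of 311.99 (DMSO) and 286.25 (FIN56), from 10078 and 9647 expected counts. The ratio by FPKM was 0.917 and the counting interval 0.894 to 0.946. The quotient of HSPE1 to HSPD1 by TPM was 1.05 in DMSO and 0.98 in FIN56, and by expected counts it was 0.933 times as high with FIN56 (bounds 0.896 to 0.972). HSPE1 is the member after the HSPA1 pair that shares most sequence, with 40.4% of its 75-base stretches found in other genes and 24.6% in the readthrough gene HSPE1-MOB4. HSPE1-MOB4 had 311 expected counts in DMSO and 422 in FIN56, an FPKM of 5.6 and 7.3. With its readthrough and pseudogene partners added, HSPE1 had a ratio of 0.930 with an interval of 0.905 to 0.956.

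The regulators of the response were present in both libraries. HSF1, the main activator, had FPKM values of 50.88 (DMSO) and 56.74 (FIN56), a ratio of 1.12. HSF2 stood at 9.4 and 11.3 FPKM, a ratio of 1.20, and its count ratio was 1.14 with an interval of 1.07 to 1.22. HSF4, a factor best known from the lens, was the only one past the threshold, at 2.82 and 1.78 FPKM from 134 and 83 expected counts, a ratio of 0.631. Transcript levels do not show whether HSF1 was active, since it is switched on after translation.

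A wider chaperone network of 92 genes in 9 lists was read in the same way. Of these, 82 reached 100 expected counts over both libraries, and 2 of the 82 were at 1.5 or more and 2 at 1/1.5 or less (2.44% each). Among all 14247 genes with that depth 5.37% and 8.85% were. Among the 6919 genes that reached an FPKM of 10 in both libraries the shares were lower, 1.97% and 3.76%. HSPA14 and DNAJC2, at 1.5 or more, belong to that abundant set, while HSF4 and HSPA12A, at 1/1.5 or less, do not. Ratios above 1 were found for 57 of the 82 genes (69.5%), beside 52.5% of all 14247 genes with at least 100 counts. The median ratio was 1.10 beside 1.02. The median log2 FPKM ratio of the network was 0.14, between 0.060 and 0.17 over the scalings and rlog values, and 0.096 after centring. With TPM 75.6% of the network genes and 56.3% of all genes of that depth were above 1, and after centring 64.6% and 47.3% were. Of the 69 network genes among the abundant genes 72.5% were above 1 by FPKM, beside 56.6% of all abundant genes. Both backgrounds include the network itself, and no test was made of these shares.

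**Figure D5:**
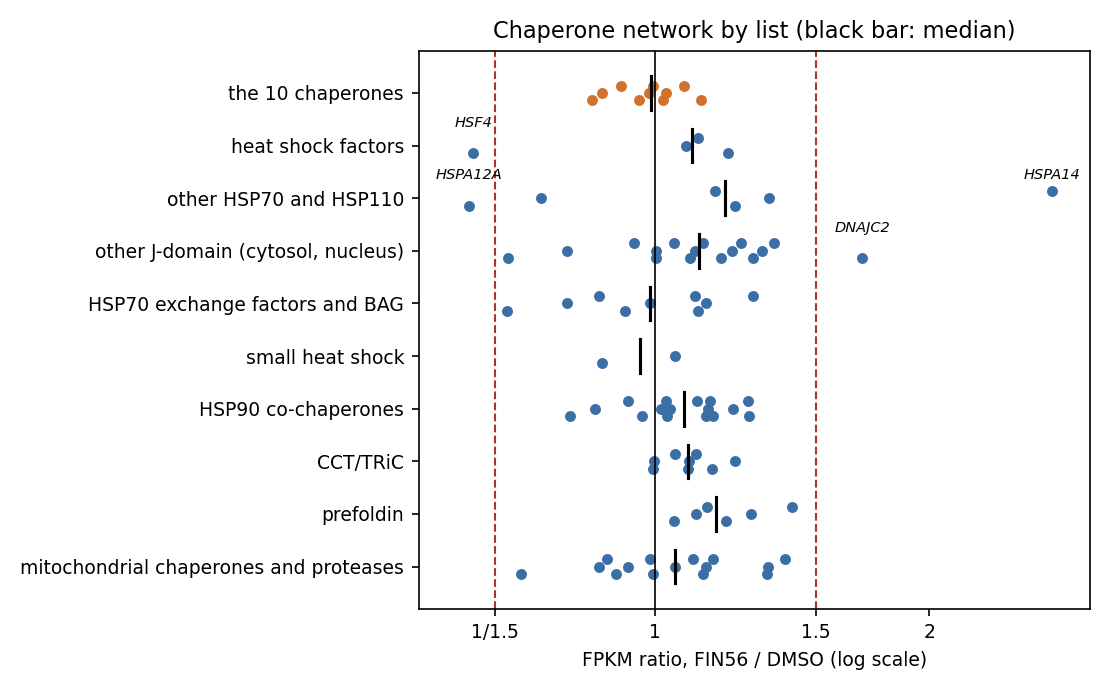
FPKM ratio (FIN56 over DMSO, log axis) of each gene that reached 100 expected counts over both libraries, for the 10 chaperones (orange) and 9 lists of the wider chaperone network (blue), with the median of each list as a black bar and dashed lines at 1.5 and 1/1.5. HSPA14 at 2.73 and DNAJC2 at 1.69 lie above the upper line, HSF4 at 0.631 and HSPA12A at 0.624 below the lower one.

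Among the other HSP70 and HSP110 genes, 4 of 6 were above 1. HSPA14, an HSP70-like protein of the ribosome-associated complex, had FPKM values of 15.21 (DMSO) and 41.5 (FIN56), a ratio of 2.73. It shares its start with ENSG00000284024 (MSANTD7 in GENCODE release 44), which had 2734 expected counts in DMSO and 2117 in FIN56 against 1682 and 4585 for HSPA14. Summed, the pair had 4416 and 6702 expected counts, a ratio of 1.46 with an interval of 1.40 to 1.51. Of the 75-base stretches of HSPA14 14.5% also occur in the overlapping gene. A sum with a gene that was lower draws the ratio down in any case, and whether reads were divided wrongly between them was not tested. HSPA12A, a distant relative of HSP70, was lowest at 1.97 and 1.23 FPKM, a ratio of 0.624. Of the J-domain genes 13 of 16 were above 1. DNAJC2, the partner of HSPA14 at the ribosome, had FPKM values of 17 (DMSO) and 28.68 (FIN56), a ratio of 1.69 (by counts 1.72, interval 1.63 to 1.81). Its canonical transcript shares no 75-base stretch with another gene, though its expected counts, 2319.04 and 4148.51, were not whole. DNAJB5 was the lowest at 0.689.

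Of the exchange factors and BAG proteins of HSP70, 4 of 9 were above 1, and their median log2 ratio, -0.019, changed sign with the scaling. BAG3, an HSF1 target that links HSP70 to autophagy, was highest with FPKM values of 55.91 (DMSO) and 71.62 (FIN56), a ratio of 1.28. STUB1, the ubiquitin ligase CHIP, was lowest at 59.98 and 41.28, a ratio of 0.688. The HSP90 co-chaperones had 12 of 16 above 1, from CDC37, which hands kinases to HSP90, at 1.27 to TOMM34 at 0.807. Of the small heat shock genes only HSPB8 at 0.873 and HSPB11 at 1.05 had 100 counts, and their median changed sign with the scaling too.

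In the cytosolic chaperonin CCT, which folds actin and tubulin, 6 of 8 subunits were above 1, from CCT7 at 0.995 to CCT8 at 1.22. All 6 subunits of prefoldin, which delivers clients to CCT, were above 1, from PFDN5 at 1.05 to PFDN1 at 1.41. Of the other mitochondrial chaperones and proteases 8 of 15 were above 1. GRPEL1, the exchange factor of mitochondrial HSP70, had FPKM values of 30.47 (DMSO) and 42.3 (FIN56), a ratio of 1.39. LONP1, the main matrix protease, was lowest at 23.16 and 16.49, a ratio of 0.712. By expected counts, 4463 and 2833, its ratio was 0.610 with an interval of 0.582 to 0.639, which is past the threshold, so its call depends on the measure. HSPD1 and HSPE1, at 0.984 and 0.917, lay between these genes.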

How the data were processed

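RNA of 1 DMSO and 1 FIN56 library of HSC-3 cells was measured. The methods, written for tumor samples and taken to hold here, and the submitters' processing notes name STAR 2.6.1a, RSEM 1.3.1 and GRCh38. RSEM gave the deposited expected counts, which are not normalized and not always whole. The authors scaled the deposited FPKM and TPM values for length and depth and wrote them with 2 decimals. The log2 values deposited by the authors are DESeq2 1.26.0 rlog values. The names of all 8 columns gave their library.

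FPKM ratios were computed here as the main measure, with no test, since each condition has 1 library. Depth was 70184517 and 73062209 expected counts, rounded for intervals (95% Clopper-Pearson), edgeR 4.0.16 TMM and DESeq2 1.42.0 size factors. The members and lists were chosen with earlier results of these data known. Named genes are the members, HSF1, HSF2, the highest and lowest of each list and those past 1.5 or 1/1.5 with at least 100 expected counts, and the largest read-sharing partner of each member. Alternatives were TPM, rlog, 3 count scalings, pseudocounts of 0.1 and 1 FPKM, minimum values of 1 FPKM or 10 expected counts, a threshold of 2, and sums with read-sharing genes. Positions and transcripts came from GENCODE release 44, later than the annotation of the files. The interval step was tested on simulated counts and the motif search on short made-up sequences, both with Python 3.11.15. The edgeR and DESeq2 steps ran in R 4.3.3.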

Additional observations from a re-analysis of the deposited data

How the results depend on the processing

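No paired analysis was possible because DMSO and FIN56 were sequenced once each. No replicate could be left out either. Of the 10 chaperones 0 were past 1.5 or 1/1.5 under every alternative run, a threshold of 2 included. Over 110 alternative values the member ratios ran from 0.827 (HSP90AB1 after centring) to 1.15 (HSPA1B with median-of-ratios scaling). The median log2 ratio of the 10 moved from -0.016 to -0.060 after centring on the abundant genes, an alternative chosen after seeing the data, and was 0.016 with TPM, 0.021 with median of ratios and 0.0089 with rlog values, so its sign is not established. No scaling moved the median of all genes by more than 0.044 on the log2 scale.

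With no minimum count, 87 genes of the wider network were above 0 in both libraries. Of these, 3 were at 1.5 or more and 4 at 1/1.5 or less, beside 14.7% and 17.3% of all 24454 such genes. No share of all genes is given for the settings that follow. With the 3 scalings of expected counts 5 genes were at 1/1.5 or less, the added one being LONP1 at 0.609 to 0.625. With rlog values, which draw the libraries together, these were 0 and 0, and at a threshold of 2 they were 1 and 2. At 1/1.5 or less, 2 genes remained with a minimum of 1 FPKM or of 10 expected counts, where fewer genes are read, and 0 with a pseudocount of 1 FPKM, which shrinks ratios of low values. HSPA14 was at 2.61 or more by FPKM, TPM and the count scalings, at 1.48 with rlog values and at 1.46 when summed with the overlapping gene, which was also added after seeing the data.

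The depth leaves counting intervals of 0.653% to 3.83% on either side of a member ratio, and the error between cultures was not measured.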

Other observations

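The FPKM ratio and the count ratio of a gene can differ. An effective length was calculated back from its expected counts, its FPKM and the library total, so it restates that difference in bases and is no separate measurement. For the 10 chaperones this implied length had FIN56 over DMSO ratios of 0.995 to 1.00. It differed more for some genes of the network, named here after their values were seen. HSPA4, an HSP110 of the cytosol, had an FPKM ratio of 1.33 and a count ratio of 1.23, with implied lengths of 1729 bases in DMSO and 1589 in FIN56. LONP1 had 0.712 and 0.610, with 2746 and 2351 bases. SPG7, a protease of the mitochondrial inner membrane, went the other way with 1.10 and 1.19, and 2717 and 2933 bases. Which transcripts of these genes changed was not tested.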
